A study of Mus musculus with 10 samples.

Results

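Liver RNA of female C57BL/6J (B6) mice taken after 1 week of feeding with much fat and cholesterol is described here across genes, against the 3 later fed B6 arrays of weeks 4, 12 and 21. This week 1 array is 1 of the 10 arrays of the series. It was chosen from its measured values, with the cell division genes Mcm5, Cdc20 and Aurka as markers, so its differences from the later B6 arrays are given as a description with no test. Beside it stand the B6 array of week 0, before the diet, and 5 arrays of female DBA/2J (D2) mice, 1 at week 1, 3 at weeks 4, 12 and 21, and 1 at week 0. Both are inbred strains, and the fed groups of both received the same diet. Equal amounts of RNA from 5 mice were pooled for each array, so 1 array stands for a strain and week and the spread between mice was not measured. The ages of the mice and the hour at which livers were taken are not given in the sources used here, and age advanced together with weeks on the diet.

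Affymetrix Mouse Genome 430 2.0 arrays measure transcripts by hybridisation of labelled RNA to probe sets, groups of short probes for 1 transcript. Levels below are log2 of the quantile-normalised signal plus 1.05, and 1 unit of difference is a 2-fold change on that scale, which understates the change of dim genes. Of 18193 genes with a named probe set, the 11061 above a mean level of 3.74 were compared. A gene was called higher where its week 1 level lay at least 1 unit above the highest of the 3 later arrays and reached 5. It was called lower where the week 1 level lay at least 1 unit below the lowest later array, itself at 5 or more. The 2% trimmed mean of the deposited signals ranged from 56.2 to 89.1 over the 10 arrays, and the B6 week 1 array was the brightest. Its correlation with the later fed B6 arrays over the 11061 genes compared was 0.959 to 0.966, within the 0.936 to 0.967 found among those later arrays.

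A dividing cell copies its DNA in S phase and parts the copies in mitosis, and many genes for each step are transcribed together. Replication begins where Cdt1 and its partners load the Mcm2 to Mcm7 helicase onto DNA, after which primase, polymerases and ligase build the new strands. Mitosis is driven by cyclin-dependent kinase and Aurora kinases. The copies part after Cdc20 activates the anaphase-promoting complex, a ubiquitin ligase that has cyclins and securin destroyed. Hepatocytes of the adult liver rarely divide but can re-enter the cycle after loss of tissue.

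The upstream sequences of 4 such genes are shown for the elements known from cell cycle promoters. They are the 250 bases before the RefSeq start in GRCm38.p6, on the gene's strand. Mcm5 lies at chr8:75109259-75109508 on the plus strand. The other stretches are on the minus strand, Mcm6 at chr1:128359706-128359955, Cdc20 at chr4:118437344-118437593 and Aurka at chr2:172370571-172370820. Capitals mark matches to the E2F sites TTTCCCGC and TTTGGCGC, the cell cycle homology region TTTGAA and the CCAAT box, on either strand.
Mcm5: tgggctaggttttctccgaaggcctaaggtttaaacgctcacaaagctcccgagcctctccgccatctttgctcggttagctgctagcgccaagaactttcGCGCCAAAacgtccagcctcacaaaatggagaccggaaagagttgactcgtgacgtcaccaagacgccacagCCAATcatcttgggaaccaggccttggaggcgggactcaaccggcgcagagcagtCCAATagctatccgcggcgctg
Mcm6: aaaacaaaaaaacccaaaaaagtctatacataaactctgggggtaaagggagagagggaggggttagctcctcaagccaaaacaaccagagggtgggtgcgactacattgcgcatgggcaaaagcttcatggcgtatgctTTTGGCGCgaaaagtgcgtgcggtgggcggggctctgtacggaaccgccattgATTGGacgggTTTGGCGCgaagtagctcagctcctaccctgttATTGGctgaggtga
Cdc20: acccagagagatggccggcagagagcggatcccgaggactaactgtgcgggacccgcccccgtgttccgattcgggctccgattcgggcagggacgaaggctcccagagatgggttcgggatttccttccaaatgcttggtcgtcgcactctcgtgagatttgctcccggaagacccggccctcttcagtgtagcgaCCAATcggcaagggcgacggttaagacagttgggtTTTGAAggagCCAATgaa
Aurka: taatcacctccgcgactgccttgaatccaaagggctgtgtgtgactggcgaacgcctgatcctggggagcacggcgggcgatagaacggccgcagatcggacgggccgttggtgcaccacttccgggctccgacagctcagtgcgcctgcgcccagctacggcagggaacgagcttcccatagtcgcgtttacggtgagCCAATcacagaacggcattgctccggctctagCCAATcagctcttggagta
The E2F site TTTGGCGC stood 149 bases before the start of Mcm5, and at 110 and 47 bases before that of Mcm6. Both also held CCAAT boxes, at 77 and 22 bases in Mcm5 and at 57 and 14 bases in Mcm6. Cdc20 held TTTGAA at 18 bases, between CCAAT boxes at 53 and 8 bases. Aurka held CCAAT boxes at 51 and 19 bases and no TTTGAA, so CCAAT stood in all 4 stretches. E2F factors are known to act on genes of S phase, while TTTGAA and CCAAT, bound by MuvB complexes and NF-Y, are known from genes of mitosis.

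Over all 32851 RefSeq promoters of this length, either E2F site was found in 1.3%, TTTGAA in 16% and CCAAT in 33.8%, with matches of each motif counted on their own even where bases were shared. Of the 33 replication and mitosis genes called higher at week 1 (below), 30 had promoters in the table. Among the 16 promoters of called replication genes, 3 (18.8%) held an E2F site, 0 held TTTGAA and 9 (56.2%) held CCAAT. Among the 20 promoters of called mitosis genes, 0 held an E2F site, 8 (40%) held TTTGAA and 19 (95%) held CCAAT. Among the 28 promoters of genes called higher that are in neither list, 1 (3.57%) held an E2F site, 7 (25%) TTTGAA and 17 (60.7%) CCAAT. In the whole lists, called or not, CCAAT stood in 23 of 43 replication promoters (53.5%) and 39 of 49 mitosis promoters (79.6%), so high shares were also found with members that were not called included. The 10 promoters found for genes called lower held 0 E2F sites, 0 TTTGAA and CCAAT in 4 (40%). These are counts of letters in a window and do not show that a factor was bound.

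At week 1, 68 of 11061 genes (0.615%) were called higher than in later fed B6 livers and 15 (0.136%) were called lower. Genes of DNA replication and mitosis made up 33 of the 68. Among members of the 2 lists that passed the filter on low levels, 14 of 33 replication genes (42.4%) and 19 of 26 mitosis genes (73.1%) were called higher, and 0 of either were called lower. The median difference from the mean of the later arrays was 1.01 for the replication genes and 1.92 for the mitosis genes, beside a median of −0.00 over all genes compared. The array was chosen for these genes, so nothing is read from their share. With 1 array at week 1, none of these differences has a replicate check. In whole liver RNA, more dividing cells and more RNA of these genes per cell cannot be told apart.

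Mcm5, a subunit of the replicative helicase, was at 8.10 at week 1, against 5.90, 4.38 and 3.79 at weeks 4, 12 and 21, and 3.38 at week 0. Before normalisation the deposited signals of its probe set were 328.1 at week 1, against 71.6, 19.1 and 14.3 at the later weeks. Cdc20 was at 6.99 at week 1, against 4.77, 4.14 and 4.11, and 4.57 at week 0. These 2 genes stood 4.58 and 4.64 times above the nearest later array. Aurka, the Aurora A kinase of the spindle poles, was at 5.87 at week 1, against 4.20, 3.91 and 3.93, and 4.06 at week 0. It was 3.18 times above the nearest later array, and its later levels averaged 4.01 ± 0.16 (SD, n = 3 arrays). These 3 markers belong to the choice of the array, so their levels describe it and are no independent check of its label.

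Subunits of the Mcm helicase were called in 5 of 6 cases. Mcm6 was at 8.36 at week 1, against 6.22, 5.20 and 4.95 at weeks 4, 12 and 21. Mcm4 was at 7.48, against 5.60, 4.49 and 4.61. Mcm3 was at 7.14, against 5.68, 4.68 and 5.01. For all 3, week 4 was the nearest array and still lay more than 2-fold below week 1. Mcm7 was at 8.59 at week 1, against 7.26, 7.36 and 7.01 later. Mcm2, the sixth subunit, at 6.52 at week 1, had 6.31 at week 4 and 4.65 and 4.77 after it, and was not called. Cdt1, the loading factor, was at 7.37, against 6.34, 5.40 and 5.62, the narrowest gap of the called replication genes (1.02).

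Enzymes of the fork and of nucleotide supply were called with them. Prim1, the catalytic subunit of primase, was at 6.92 at week 1, against 5.23, 4.30 and 4.42 later. The ribonucleotide reductase subunits, which make deoxynucleotides, were at 6.82 for Rrm1, against 5.28, 5.09 and 5.27, and at 8.49 for Rrm2, against 6.13, 6.71 and 6.89. Rrm1 is an example of a flat later course, with a mean of 5.21 ± 0.11 (SD, n = 3 arrays). Ligase Lig1, the dUTPase gene Dut, the polymerase epsilon subunit Pole2, the clamp loader subunit Rfc4 and the single-strand binding subunit Rpa2 completed the 14, each 2.41 to 2.49 times above its nearest later array. Pcna, the sliding clamp, was at 9.98, against 9.19, 8.97 and 8.76, above all later arrays but short of the call. Over the 33 genes, 26 lay above all 3 later arrays, and 1 lay below them, Cdc45 (3.63, against 4.24, 4.07 and 4.26). For scale, 25.3% of all genes lay above the 3 later arrays and 23.4% below.

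Among mitosis genes, Ube2c, the ubiquitin-conjugating enzyme of the anaphase-promoting complex, was at 7.02 at week 1, against 4.78, 2.78 and 4.04 at weeks 4, 12 and 21. Nek2, a centrosome kinase, was at 6.50, against 4.45, 3.11 and 3.89. Hmmr, a spindle protein, had the widest gap of the list, at 5.67 against 3.27, 2.97 and 2.86, or 5.27 times the nearest array. Several of these later levels lie below 3.74, the middle of all probe set means, where signals are dim.

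The cell cycle kinase and its cyclins were called as well. Cdk1 was at 6.65 at week 1, against 5.49, 4.28 and 4.50. Ccna2 was at 5.98, against 4.93, 3.39 and 3.13. Ccnb2 was at 6.39, against 4.77, 4.33 and 3.69. Each was highest at week 1 and, among the later arrays, highest at week 4. The checkpoint gene Mad2l1 was at 7.40, against 5.92, 4.49 and 5.15, and Top2a, which untangles sister DNA, was at 6.51, against 5.30, 3.99 and 3.51. Cdca3, which aids entry into mitosis, was at 6.85, against 4.97, 4.01 and 4.09. The other called members were the kinetochore genes Spc24, Spc25 and Cenpk, the spindle and cytokinesis genes Kif22, Ckap2, Prc1 and Racgap1, and Cdca8 of the chromosomal passenger complex. Mki67, the gene of the Ki-67 antigen used to count cycling cells, was at 6.55, against 5.82, 4.11 and 3.88, and was not called. Securin, Pttg1, was the 1 member below all later arrays, at 9.95 against 10.18, 10.14 and 10.20.

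**Figure D1:**
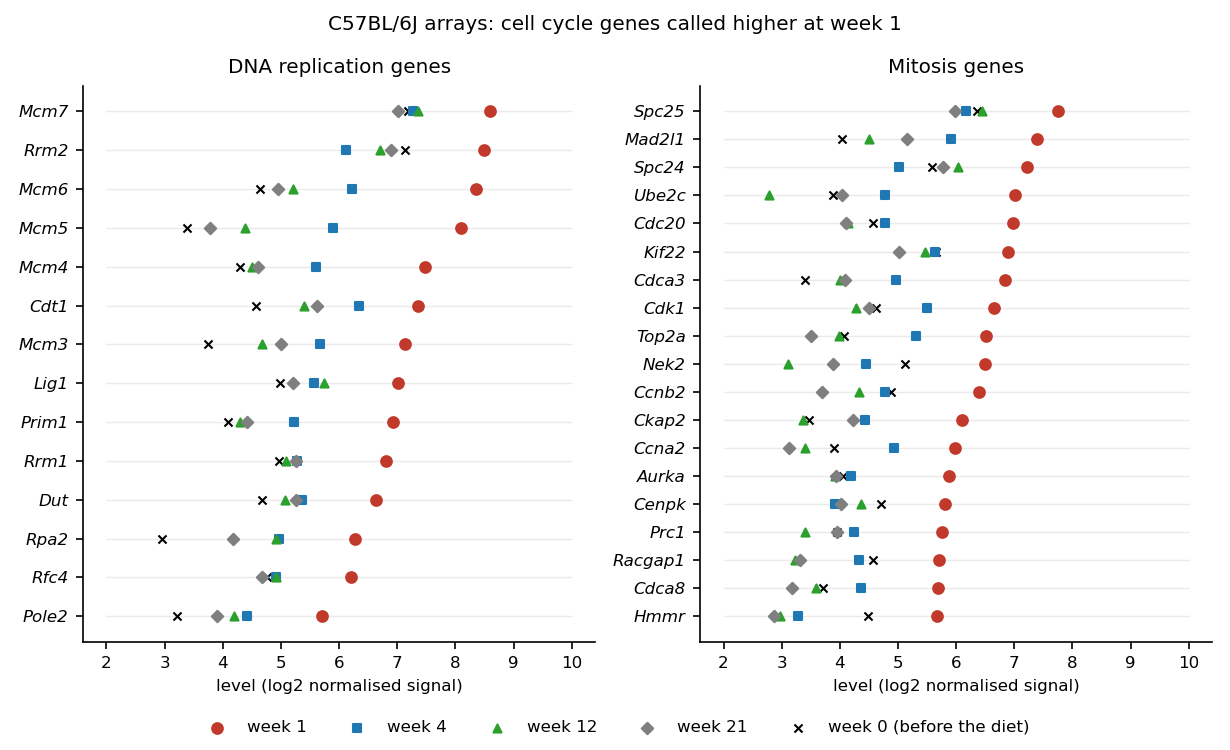
Level (log2 normalised signal, x axis) of the 14 replication and 19 mitosis genes called higher, with a red circle for B6 week 1, other symbols for weeks 4, 12 and 21, and a cross for week 0. In each row the red circle stands to the right of all other symbols, and in 26 of 33 rows the nearest later symbol is the blue square of week 4.

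The filter on low levels left out 6 replication and 28 mitosis genes with a probe set. Of the 96 members of both lists, 93 had a probe set, and Chaf1a and Ccnb1 were among the members not analysed here. Without the filter, 17 of 39 replication genes and 27 of 54 mitosis genes were called, and 30 and 50 lay above all 3 later arrays, with medians of 1.06 and 1.89. Over all 18193 genes without the filter, 91 (0.5%) were called higher and 24.7% lay above all 3 later arrays. Of the 28 mitosis genes left out, 18 were below 5 at week 1, too dim to be called by this rule. Examples of called genes below the filter were the methylated-DNA binding gene Uhrf1 (6.40 at week 1, against 4.21, 2.18 and 3.19) and the survivin gene Birc5 (6.29, against 4.74, 3.72 and 3.22). At the edge of the rule, E2f1 and Hdhd5 were just inside with gaps of 1.02 and 1.01, and D17H6S56E-5 and Klhl42 were just outside with 1.00 and 0.98. On the lower side Osbpl3 and Tecpr1 were just inside, at −1.05 and −1.01, and Bcl2l11 and Pcsk4 just outside, at −0.98 and −0.89.

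Of the 83 genes called in either direction, 29 had another probe set above the filter. In 27 of these 29, each other probe set lay on the same side of all 3 later arrays, and in 0 did one lie on the opposite side. Of 37 such probe sets, 19 were called the same way. The probe sets read here for Mcm5, Mcm3, Mcm7, Rrm2, Nek2, Prc1, Kif22, Cdca8, Pbk, Stmn1, Mt1, Dbp, Ggt5 and Igkv8-30 may bind several transcripts, by their names, so their signals may hold more than 1 gene.

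The called cell cycle genes were higher at week 1 than at week 0 as well. Each of the 33 was higher at week 1 than at week 0, by at least 2-fold, and higher than in each of the 9 other arrays of the series. This comparison uses the same week 1 array and is 1 array against 1. Over all genes, 445 (4.02%) were called higher than at week 0 and 251 (2.27%) lower. These 2 counts depend on the scaling, with 2595 higher and 49 lower in values as deposited, where the median of all genes was 0.72 higher at week 1. In B6 the median level of the 14 replication genes was 4.61, 7.08, 5.59, 4.99 and 4.98 at weeks 0, 1, 4, 12 and 21. That of the 19 mitosis genes was 4.49, 6.50, 4.77, 3.99 and 4.02 at the same weeks. Both medians were at their highest at week 1 and were next highest at week 4.

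**Figure D2:**
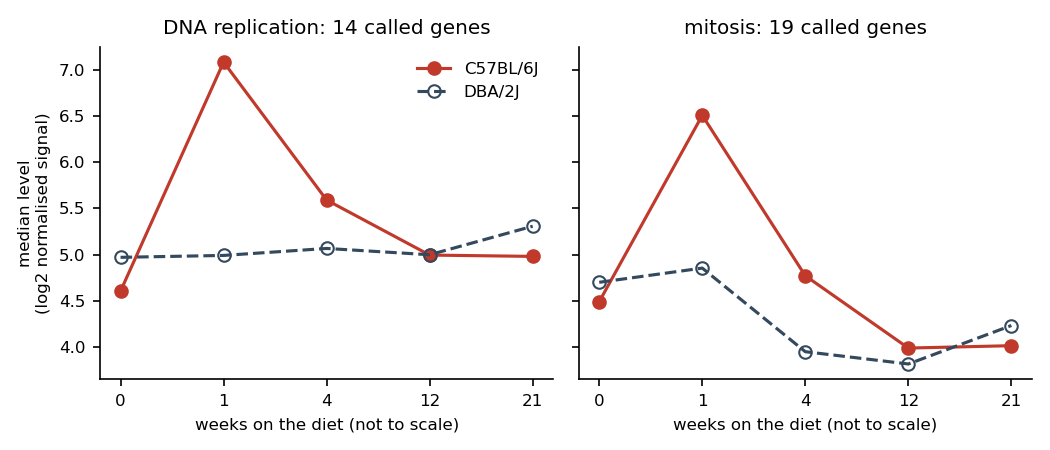
Median level (log2 normalised signal, y axis) of the called replication genes (left, 14 genes) and mitosis genes (right, 19 genes) by weeks on the diet, with filled red points for C57BL/6J and open points for DBA/2J. The B6 line peaks at week 1 at 7.08 and 6.50, and the D2 line stays between 4.97 and 5.31 on the left and between 3.82 and 4.85 on the right.

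When each fed array was set against the 3 other fed arrays of its strain by the same rule, 33 replication and mitosis genes were called higher at B6 week 1 and few or none in the other arrays. The arrays of B6 weeks 4, 12 and 21 had 0 of the 59 replication and mitosis genes called higher. Each was set against a group that held week 1, where 51 of the 59 lay above all 3 later arrays. Those 51 could not be called higher at a later B6 week, so nothing is read from these counts of 0. Over all genes, week 4 had 269 called higher (2.43%), week 12 had 34 and week 21 had 15. D2 week 1 had 1, which was Cdc20, and D2 weeks 4, 12 and 21 had 0.

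The D2 arrays took no part in the choice and were tested with limma, week 1 against weeks 4, 12 and 21. The weeks stand in for replicates, and the spread of the lone week 1 array was taken from the later arrays of both strains together. The p-values and SE thus measure the spread between pools and weeks in B6 as well as in D2. No gene of 11061 passed an adjusted p of 0.05 (0 genes, 0%), while 486 (4.39%) had an unadjusted p under 0.05 and 203 of these (1.84%) were higher at week 1. By the fold call, 14 genes (0.127%) were higher and 17 (0.154%) lower in D2 at week 1. In simulated data of this design limma recovered 36% of genes changed by 1 unit and 81% of those changed by 2. Those data held 100 changed genes of each size, and the adjustment is stricter where fewer genes change. The 2 shares therefore do not tell how many changes of these sizes were missed in D2.

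In D2 the mitosis genes were mostly above the later arrays at week 1, and the replication genes mostly were not. Of 26 mitosis genes, 18 (69.2%) lay above all 3 later D2 arrays and 0 below, where 27.7% of all genes lay above, and their median difference was 0.46. Of 33 replication genes, 7 (21.2%) lay above all later D2 arrays and 11 below, with a median of −0.04. Without the filter on low levels these counts were 29 of 54 mitosis genes and 7 of 39 replication genes, where 4842 of 18193 genes lay above all later D2 arrays. Among genes called in B6, D2 week 1 was above all later D2 arrays in 16 of 19 mitosis genes and 2 of 14 replication genes. The difference between the strains was not tested, since the B6 values chose the array.

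In D2, Aurka was at 4.51 at week 1, against 2.87, 3.14 and 2.65 at weeks 4, 12 and 21, with 3.92 at week 0. This was a difference of 1.62 ± 0.38 (SE), with an unadjusted limma p of 0.00332 and an adjusted p of 0.999. Cdc20 was at 5.32 at week 1, against 4.02, 4.12 and 4.25, with 4.56 at week 0. This was a difference of 1.18 ± 0.34 (SE), with an unadjusted limma p of 0.00957 and an adjusted p of 0.999. In both genes the D2 week 1 array was above all other D2 arrays but below B6 week 1, and neither passed after adjustment. Mcm5 in D2 was at 5.09 at week 1, against 4.52, 4.59 and 5.26, so the week 1 level lay within the range of the later arrays. The third mitosis gene with an unadjusted p under 0.05 was Ccnb2 (1.02 ± 0.43, SE), and the replication list had Orc6 higher (0.85 ± 0.34, SE) and Dut lower (−0.67 ± 0.22, SE), each with a limma adjusted p of 0.999.

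**Figure D3:**
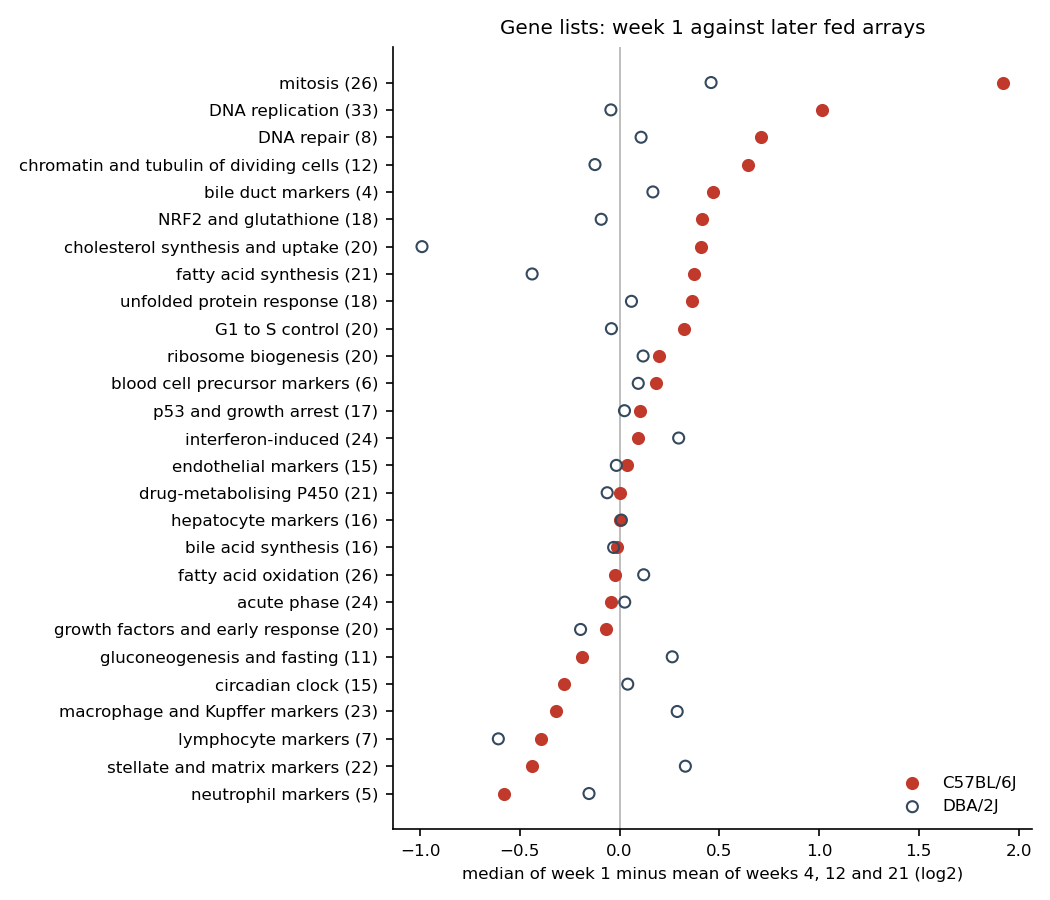
Median of week 1 minus the mean of weeks 4, 12 and 21 (log2, x axis) for 27 gene lists, with the number of members above the filter in brackets, filled red for C57BL/6J and open for DBA/2J. The mitosis and replication lists stand furthest right in B6, at 1.92 and 1.01, against 0.46 and −0.04 in D2.

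Regulators of the step from G1 to S phase were called in part. Of 20 such genes above the filter, 3 were called higher and 16 lay above all later arrays, with a median of 0.32. Ccnd1, the cyclin D1 that responds to growth signals, was at 9.75 at week 1, against 8.22, 7.87 and 8.53, and 7.75 at week 0. In D2 it differed by 0.57 ± 0.48 (SE, limma adjusted p = 0.999), and the week 1 level lay within the range of the later arrays. The E2F factor E2f1 was at 5.55 in B6 at week 1, against 4.53, 3.11 and 3.03. Cyclin E2, Ccne2, was at 5.60, against 4.08, 4.28 and 3.89. Cks1b and Skp2, partners in the destruction of cell cycle inhibitors, were at 8.90 and 5.07, above all later arrays and not called.

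Among genes that protect and package new DNA, 1 member of each list was called. Of 8 DNA repair genes above the filter, Clspn, an adaptor of the replication checkpoint, was called (5.05, against 3.83, 3.21 and 3.67), and 7 lay above all later arrays. Topbp1 (7.31, against 6.45, 6.09 and 5.63) and Brca1 (5.57, against 4.82, 4.93 and 4.20) were among those not called. Of 12 chromatin and tubulin genes, Stmn1, a regulator of microtubules, was called at 8.98, against 7.26, 6.44 and 6.79, and 10 lay above all later arrays. Ezh2 was at 6.28, against 5.55, 4.87 and 5.05. The medians of these lists were 0.71 and 0.64. Of all genes, 25.3% lay above the later arrays, and the array was chosen for its cell division genes, so no direction is read from these counts.

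Lists of growth arrest and of growth signals had 0 genes called. The p53 list had a median of 0.10 over 17 genes. Cdkn1a, the p21 inhibitor of cyclin-dependent kinases, was at 8.61 at week 1, against 7.35, 5.85 and 8.78, and 9.59 at week 0. The growth factor and early response list had a median of −0.07 over 20 genes. Its member Jun was at 9.57, against 8.89, 9.14 and 7.62, and Il6ra, the interleukin 6 receptor, was at 6.56, against 6.91, 8.50 and 7.93. The ribosome biogenesis list had a median of 0.20 over 20 genes, with 13 above all later arrays, among them Nolc1 (6.96, against 6.07, 6.25 and 6.30).

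Outside the 2 cell cycle lists, 35 genes were called higher, and some are known cell division genes that the lists did not hold. Pbk, a mitotic kinase, was at 6.26 at week 1, against 4.13, 3.04 and 3.03. Others of these 35 are named here after their values were seen. They included the centromere and kinetochore genes Cenpm, Cenpq, Cenpu and Kntc1, the cohesin regulator Cdca5 and the spindle gene Ckap2l. They also included the replication genes Timeless and Mms22l, as well as Atad2 and Tcf19. Their week 1 levels ran between 5.09 (Cenpm) and 6.81 (Atad2). Cenpm was at 5.24 and Ckap2l at 4.98 at week 0, so these did not stand apart from the array before the diet.

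The widest gap to the nearest later array (2.41) was that of a detoxification gene. Cyp2c55, a cytochrome P450 known to be inducible in mouse liver, was at 9.87 at week 1, against 7.46, 5.68 and 6.28 at weeks 4, 12 and 21, and 6.06 at week 0. In D2 it was at 5.29 at week 1, against 6.83, 4.52 and 5.45. The B6 level was 5.32 times the nearest later array, and it was the 1 of 21 P450 genes called. Cyp2b10, a target of the receptor CAR, was at 9.22, against 7.13, 8.54 and 8.76, but at 10.94 at week 0. Gstm2, a glutathione S-transferase, was at 10.42, against 8.97, 7.30 and 8.60, and 8.57 at week 0. It was the 1 of 18 NRF2 and glutathione genes called, a list with a median of 0.41 and 11 members above all later arrays. Gsta4 (11.12, against 10.34, 9.32 and 10.10) and Gstm3 (12.39, against 12.10, 9.22 and 11.24) were not called.

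Heat shock genes were high at week 1 and at week 0. Hspa1a was at 6.59 at week 1, against 4.89, 4.42 and 4.18, and 6.55 at week 0. Its near-identical copy Hspa1b was at 10.01, against 7.78, 8.77 and 8.21, and 11.07 at week 0, and signals of such copies may not be separable. Slc22a7, a hepatic anion transporter, was also higher than the later arrays (7.02, against 4.77, 5.58 and 5.30) and below week 0 (7.99). These genes were thus called against the later weeks without being raised over the array before the diet.

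**Figure D4:**
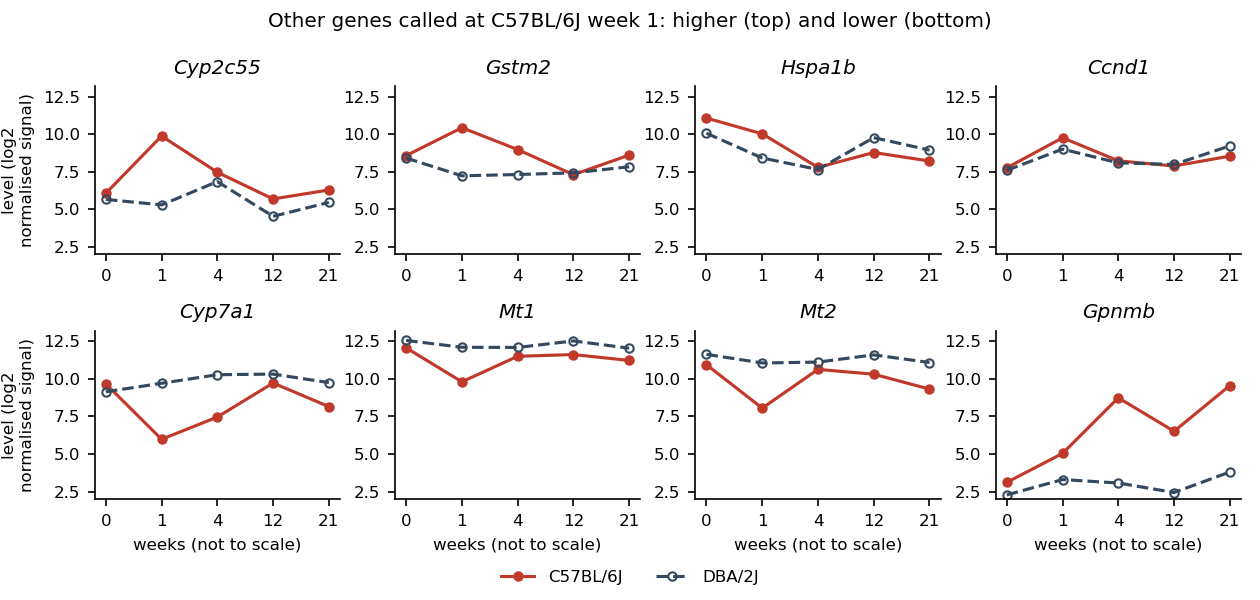
Level (log2 normalised signal, y axis) by weeks on the diet for 8 genes called at B6 week 1 outside the 2 cell cycle lists, 4 higher (top) and 4 lower (bottom), with filled red points for C57BL/6J and open points for DBA/2J. Cyp2c55 and Gstm2 reach their highest points, 9.87 and 10.42, at B6 week 1, and Cyp7a1, Mt1 and Mt2 their lowest, 5.98, 9.81 and 8.05.

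Of the 15 genes called lower, 8 reached the level set for naming. Cyp7a1, which catalyses the slowest step of bile acid synthesis, was at 5.98 at week 1, against 7.46, 9.73 and 8.15 at weeks 4, 12 and 21, and 9.67 at week 0. In D2 it was at 9.71, against 10.28, 10.32 and 9.76. It was 1 of 16 bile acid synthesis genes and the 1 called. Cyp8b1, the sterol 12-alpha-hydroxylase, was at 3.36 at week 1, against 3.63, 8.36 and 2.63, and 10.92 at week 0, so low levels were shared by weeks 1, 4 and 21. Nr0b2, the receptor SHP that represses bile acid synthesis, was at 9.58, against a later mean of 8.78 ± 0.24 (SD, n = 3 arrays), and was not called.

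The metallothioneins, small proteins that bind zinc, were called lower. Mt1 was at 9.81 at week 1, against 11.51, 11.62 and 11.23, and 12.07 at week 0. Mt2 was at 8.05, against 10.63, 10.31 and 9.32, and 10.94 at week 0. The copies are alike, and both were at least 11.06 in each D2 array.

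The circadian clock genes Dbp and Nr1d1 were called lower against the later weeks. Dbp was at 7.84 at week 1, against 9.64, 9.94 and 8.94, and 5.58 at week 0. Nr1d1 was at 4.69, against 6.56, 6.26 and 6.18, and 3.02 at week 0. Both were the called members of 15 circadian clock genes, and their levels are known to swing over the day. In D2, Dbp was at 10.24 at week 1, against 10.10, 10.53 and 10.33, and 5.97 at week 0. Week 0 was the lowest array of both genes in both strains.

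Gpnmb, a marker of lipid-laden macrophages, was at 5.04 at week 1, against 8.74, 6.51 and 9.56, and 3.11 at week 0. Atp6v0d2, a proton pump subunit, was at 5.09, against 6.27, 7.09 and 7.15, and the small nucleolar RNA host gene Zfas1 at 6.47, against 7.99, 8.37 and 8.17. The other 7 genes called lower, chosen here after their values were seen, were Adgrg2, Ggt5, Igkv8-30, Klf1, Osbpl3, Serpinb1a and Tecpr1. Of these, Serpinb1a was lower in both strains, at 4.03 at week 1 against 5.65, 7.58 and 5.31 in B6, and at 4.55 against 6.57, 6.66 and 6.90 in D2 (limma adjusted p = 0.999). Adgrg2 was at 4.18 against 5.57, 6.02 and 6.59 in B6, and at 3.58 against 4.52, 4.92 and 4.96 in D2 (limma adjusted p = 0.999).

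Markers of the cells that whole liver RNA can hold were read beside the cell cycle genes, and their part in the result was not tested. No probe set had a deposited value of 0. The summed normalised signal of 16 hepatocyte markers was 76028 at week 1, against 75478, 78271 and 76673 at weeks 4, 12 and 21, and their median difference was −0.00. The summed signal of 24 macrophage and Kupffer cell markers was 9844 at week 1, against 27457, 4857 and 14870.0, so week 1 lay inside the range of the later arrays. Of 23 of these markers above the filter, 0 were called higher than the later arrays and 1, Gpnmb, lower. At B6 week 0 the sum was 4558. Against week 0, 13 of the 23 were called higher at week 1 and 0 lower, where 4.02% of all genes were called higher. The median difference of the 23 from week 0 was 1.09.

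Blood cell markers did not share 1 direction. The 16 lymphocyte markers summed to 224.7 at week 1, against 534.7, 243.1 and 623.5, and 5 of 7 above the filter lay below all later arrays, among them Ighm (5.05, against 6.70, 5.51 and 8.29). The 13 neutrophil markers summed to 747.9, against 5476, 216.0 and 1341. The 12 markers of blood cell precursors summed to 729.6, against 568.1, 587.0 and 469.5, with 609.3 at week 0, so their sum was highest at week 1. The median level of the 6 above the filter was instead the lowest of the fed B6 arrays, at 5.92 against 6.08, 6.49 and 6.00. Of the 6, 3 lay above all later arrays and 1 below. Among the 12 markers, Tfrc, the transferrin receptor for iron uptake, was at 8.52, against 7.73, 7.77 and 7.54. A sum of linear signals weighs such bright members most, and the sum without Tfrc was not taken, so nothing is read from its height at week 1. Klf1, a factor that defines red cell precursors, was called lower (4.42, against 5.56, 6.43 and 5.77). In all, 7 of the 12 precursor markers were below 5 in each array.

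The 23 stellate cell and matrix markers summed to 4391 at week 1, against 7911, 4165 and 5837, and 11 of 22 above the filter lay below all later arrays, with a median of −0.44. Endothelial markers had a median of 0.04 over 15 genes. Of 9 bile duct markers, 4 passed the filter, with a median of 0.47, led by Prom1 (8.50, against 7.74, 5.35 and 6.73), and 6 were below 5 in each array. No marker list of these 3 cell types had a gene called in either direction.

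Lipid and stress lists had smaller medians in B6 than the cell cycle lists, and 0 of their genes were called apart from those named above. Cholesterol synthesis and uptake had a median of 0.41 in B6 and −0.99 in D2 over 20 genes. Its values followed single later arrays, as in Idi1, at 6.75 at week 1 against 5.93, 6.78 and 4.84 in B6, and at 5.48 against 6.01, 10.43 and 5.88 in D2. Fatty acid synthesis had a median of 0.37 in B6 and −0.44 in D2 over 21 genes. Fasn, fatty acid synthase, was at 10.50 at week 1, against 9.78, 10.16 and 9.11 in B6, above all 3. In D2 it was at 8.06 at week 1, against a later mean of 9.45 ± 0.67 (SD over 3 arrays), and below all 3 (difference −1.40, limma adjusted p = 0.999). The unfolded protein response list had a median of 0.37 over 18 genes, with 12 above all later arrays, such as the chaperone partner Creld2 (8.49, against 7.81, 7.57 and 7.33). Fatty acid oxidation (−0.03), the acute phase (−0.04) and interferon-induced genes (0.09) had medians near that of all genes in this comparison. Against B6 week 0 these 3 medians were −0.48, 0.07 and 0.86, beside 0.02 over all genes. Those of cholesterol synthesis and uptake, fatty acid synthesis and the unfolded protein response were −0.86, 0.52 and −0.13. Of the 24 interferon-induced genes, 9 were called higher than at week 0, and 9 of the 20 cholesterol genes were called lower. Over all genes 4.02% were called higher and 2.27% lower.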

How the data were processed

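RNA of female B6 and D2 livers was extracted with Trizol and hybridised to 1 array per strain and week, per the labels. The deposited intensities are linear signals, which the authors made with GCOS (version not given), per the submitters' processing notes. All 10 columns were matched to samples and 0 were left unmapped. Of 45101 probe sets, 64 controls were left out. The others were quantile normalised and put on a log2 scale after adding 1.05, the 10th percentile of what was deposited. The brightest probe set on average stood for a gene, and genes above the 50th percentile of probe set means were kept. Names came from the platform annotation, updated through RefSeq (34945 probe sets with 1 symbol, 932 with several and 9160 without one, the last 2 kinds not used). The deposited values give no detection call. The number of arrays limits the precision.

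D2 week 1 was tested against later D2 in limma 3.58.1 (R 4.3.3, the package data.table, version 1.17.8) with lmFit and eBayes with trend, over 8 fed arrays as 4 group means with 4 residual degrees of freedom, and p-values were adjusted by Benjamini-Hochberg over 11061 genes at 0.05. The fit was tested on simulated data (100 genes changed by each size), in which 10 unchanged genes were also called. Motifs were searched and figures drawn in Python 3.11.15 with pandas 2.3.3 and matplotlib 3.10.9. The week 1 array, its markers and the 27 gene lists (609 entries, 554 with a probe set) were chosen with earlier results of these data known. Named genes were the 12 largest gaps each way among called genes with a level of at least 6 (8 were found on the lower side), up to 5 members of each list, and the 3 markers. Other called members are named as counts require, after their values were seen, and not every gene that the rule allows is printed. Alternatives were the scaling, pseudocount, filter, choice of probe set, size and level of the call, form of the limma fit, and each later array left out.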

Additional observations from a re-analysis of the deposited data

Results flagged for a closer look

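For 12 of the 83 called genes (14.5%), the B6 and D2 week 1 arrays lay on opposite sides of all 3 later arrays of their strain. This is a smaller share than over all genes, where 1565 of the 5385 above or below all later B6 arrays (29.1%) lay on the opposite side in D2, and nothing is read from the count. The difference between strains was not tested, and the B6 values had chosen the array. B6 differences minus D2 differences (week 1 minus the mean of the later weeks) are given on the log2 scale. Of replication genes called higher in B6, Mcm3 differed by 2.76, Prim1 by 2.71, Dut by 2.07 and Rpa2 by 1.75. The spindle gene Ckap2l differed by 3.07, where D2 was at 3.20 at week 1 against 4.45, 4.24 and 4.71 later. Mms22l and Tcf19 differed by 1.80 and 1.70. Among genes of liver metabolism and transport, Gstm2 differed by 2.43, Slc22a7 by 2.25 and the bile acid transporter gene Slc10a2 by 1.49. Dct, a pigment enzyme gene, differed by 2.43. Zfas1, called lower in B6, differed by −2.51, with 8.44 at week 1 in D2 against 7.53, 8.08 and 7.30 later. Another 5 genes described above, which did not reach the fold of the call, also lay on opposite sides, higher at week 1 in B6: Fasn differed by 2.22, Jun by 1.66, Cks1b by 1.46, Nr0b2 by 1.21 and Pcna by 1.15. No group held 4 or more arrays, so single arrays were not screened as outliers within groups.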

How the results depend on the processing

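Of 128 summary values under other settings, 94 kept their size and 34 moved, with 0 reversed; of 1491 differences of 140 named genes, 1453 moved by less than the spread of the later arrays, 38 by more, and 0 of the called ones changed sign. The 33 called cell cycle genes were all called with arrays centred on their medians and with values as deposited. With a pseudocount of 16, 24 of them remained called. With a filter at the 65th percentile 14 were still tested and all were called, and with the mean of all probe sets 21 were tested and 18 called. The count of genes called higher at B6 week 1 was 37 with a pseudocount of 16, 28 with the 65th percentile filter, 44 with the mean of all probe sets and 176 with a gap of 1.5-fold. The count called lower was 7, 8 and 82 with that pseudocount, the mean of probe sets and that gap, and 41 with no minimum level. Mitosis genes called higher were 4 with the 65th percentile filter, where 8 were tested, and 8 with the mean of all probe sets, where 13 were tested. The replication median was 1.37 with that filter, and the mitosis median 1.36 with the pseudocount of 16. Leaving out 1 later B6 array gave 81 to 122 genes called higher, the most without week 4, and 23 to 59 called lower, with 49 without week 4 and 59 without week 12.

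Values as deposited shifted the median of all genes by 0.16 in B6 and −0.17 in D2 at week 1 against later weeks, and by 0.72 in B6 at week 1 against week 0. On that scale D2 had 5 genes called higher and 33 lower, and D2 medians were −0.21 for replication and 0.32 for mitosis genes. Against week 0, B6 week 1 had 2595 higher and 49 lower as deposited, 634 higher and 186 lower with centred arrays, and 296 higher and 162 lower with a pseudocount of 16. With that pseudocount D2 had 11 genes called lower and a mitosis median of 0.30, which was 0.19 with the 65th percentile filter. Leaving out 1 later D2 array gave 22 to 41 genes called higher and 30 to 36 lower, and 0 to 1 past the limma threshold, the 1 without week 12. No paired analysis was possible because each strain has 1 array at a week and the comparison within a strain sets weeks against each other. Apart from the fewer genes that the stricter filter and the mean of probe sets leave to test, the causes of these moves were not tested.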
